A study of Drosophila melanogaster with 20 samples.

Results

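Genes of the DNA replication and cell cycle machinery were followed in whole Drosophila melanogaster embryos with 5 levels of mef2 activity. The genes sought by name were the helicase subunits Mcm2, Mcm3, Mcm5 and Mcm7, the sliding clamp PCNA (older symbol mus209), the S phase kinase Cdk2 and its partner CycE, the kinase inhibitor dap and the phosphatase gene stg. Of these 9, 6 had a named probe set, 1 each, out of 10845 genes with a probe set of a single symbol. All 6 passed the filter on low signal that left 8358 genes to test. They were Mcm2, Mcm5 and Cdk2 on chromosome arm 3R, Mcm3 on X, PCNA on 2R and CycE on 2L. Mcm7, dap and stg had no named probe set and were not analysed here. Each of the 6 genes thus rests on 1 probe set, and no second one was at hand to check it.

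Mef2 is a MADS-box transcription factor required for muscle differentiation. The genotypes were the mef2 null (allele 22.21), the hypomorphic alleles 113, 424 and 65, and the control stock dp cn a px sp, which carries visible markers. Per the labels the 3 hypomorphs were made by mutagenesis of that stock and the activity order is null, 113, 424, 65 and control from lowest to highest. The labels do not give the background of the null, so in comparisons with the null, stock background and mef2 activity cannot be told apart. Mutant embryos were picked because they lacked a GFP balancer driven through twi-Gal4, so the picked embryos carried no CyO chromosome. Each genotype had 4 arrays of RNA from pools of 150 embryos at mid stage 13. Per the labels all embryos were collected over 30 min and aged for 6.5 h at 25 °C. No label ties the arrays to separate collections, so a p-value here speaks only of the spread between arrays. Mef2 itself had no named probe set, so the labels could not be checked on the mutated gene.

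Before S phase a ring of Mcm proteins is loaded at replication origins, and it unwinds DNA once the kinases Cdk2 with CycE and Cdc7 act on it. PCNA, loaded behind it by the RFC complex, holds the polymerases on the template. In the fly embryo most epidermal cells have left the division cycle by this stage through dap and low CycE, while neuroblasts go on dividing and gut and salivary gland cells enter cycles of replication without mitosis.

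Signals are MAS5 intensities that the authors had scaled to one level, with array medians of 33.6 to 37.3. Changes are differences of log2(signal + 16), which understate the change of dim genes, given with their standard error (SE). A gene was called where its Benjamini-Hochberg adjusted p in limma, over 8358 genes, was under 0.05. The 4 comparisons against control share the same control arrays, and each step between alleles shares arrays with its neighbours. The arrays were hybridised on 4 days and on 4 fluidics modules. All control arrays ran on module 4, which held null replicates 1 and 3 but no array of 113, 424 or 65, so for these 3 alleles the module and the contrast with control cannot be told apart on any single module. The record of 65 replicate 4 states that its fluidics run was aborted by the user, and its values are in all results unless it is named as left out.

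Tissue markers were set beside the label of whole embryo. Of 8 markers of tissues of the whole embryo, 7 had a probe set, and all 7 (elav, repo, Mlc2, btl, Col4a1, apolpp and GATAe) lay above the filter signal of 9.29 in every genotype. CrebA had no probe set here. Some of these markers moved beside the replication genes. The glial factor repo was higher by 0.91 in the null, 0.42 in 424 and 0.60 in 65 and had 0.36, not called, in 113. Col4a1, a basement membrane collagen of hemocytes and fat body, was higher in the null by 0.37, and apolpp, a lipoprotein of the fat body, was lower at -0.48 in the null and -0.28 in 424. Of the 7 markers, Mlc2 included, 2 were called higher and 2 lower in the null, where 8.87% and 10.9% of all genes were. In 424, 1 was higher and 2 lower, where 10.2% of all genes were called. In 65, 1 was higher and 1 lower, where 6.07% were called, and in 113, 1 was lower, where 7.38% were called. The part of these markers in the values below was not tested.

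Mcm5 and PCNA were higher in null embryos, Cdk2 was lower, and the other 3 genes were not called. Along the allele order the replication genes did not move one way: Mcm2, Mcm3, Mcm5 and PCNA had higher means in null and 424 than in 113 and 65. For Mcm3 and Mcm5 the differences of 424 from 113 and from 65 were not called. CycE was highest in 424, and Cdk2 was highest in 65 and lowest in the null. In whole embryos, more cells of a replicating type and more RNA per cell cannot be told apart.

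**Figure D1:**
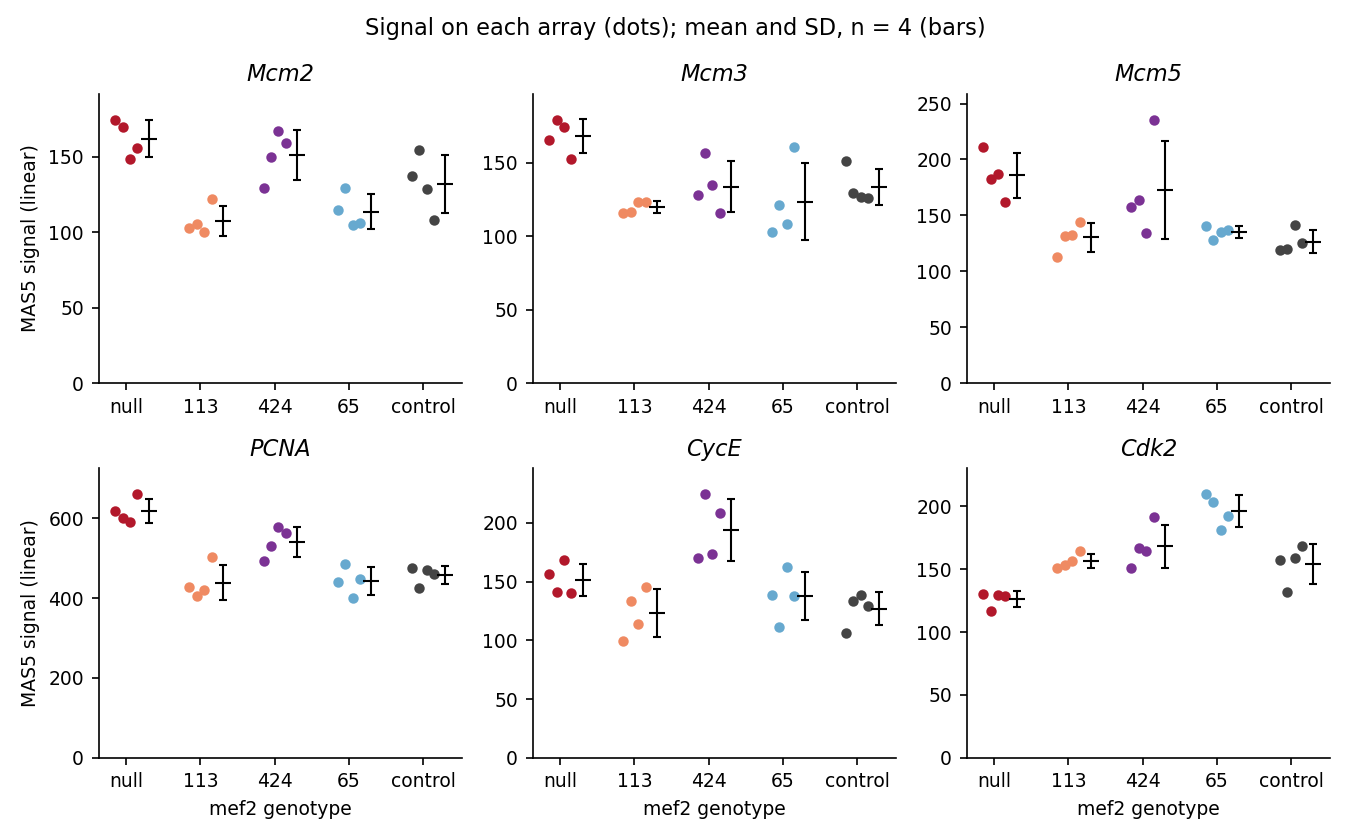
Signal (MAS5, linear scale from 0) of the 6 genes on each array, 4 dots a genotype, with the genotype mean as a bar; each gene has its own axis. Null arrays stand above all 113 and 65 arrays for Mcm2 and PCNA, the 424 means lie above those of 113 and 65 with some overlap of arrays, 424 arrays stand highest for CycE, and null arrays stand lowest for Cdk2.

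Mcm5 encodes a subunit of the replicative helicase. Its signals were 211, 183, 187 and 162 in the null, 112.5, 132, 133 and 144 in 113, and 158, 163, 135 and 235 in 424. They were 141, 128, 135.5 and 137 in 65, and 119, 120.4, 141 and 125 in control. Every null array was above every control array, while the 424 arrays overlapped those of the control. In the null Mcm5 was higher by 0.50 ± 0.12 (SE, adjusted p = 0.0040), a fold of 1.41, with 0.75, 0.54, 0.37 and 0.34 on the 4 hybridisation days. The change was 0.59 with the fluidics module as a block (adjusted p = 0.0071). In 424 it was higher by 0.38 ± 0.12 (adjusted p = 0.0436), which rests on replicate 4: without it the change was 0.24 and the adjusted p 0.200. The within-day values for 424 were 0.37, 0.40, -0.06 and 0.84. The 424 call was also lost without 424 replicate 1 or 2 or control replicate 1, 2 or 4, at adjusted p of 0.0539 to 0.108, and with the module as a block, at 0.47 (adjusted p = 0.470). In 113 the change was 0.04 and in 65 it was 0.09, and neither was called.

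PCNA had signals of 618, 602, 590.3 and 659.5 in the null, 429, 405, 420.2 and 502 in 113, and 493, 530.4, 577 and 564 in 424. In 65 they were 441, 485, 399.5 and 448.5, and in control 475, 426, 471 and 459. The null arrays all lay above every array of the other 4 genotypes, and the 424 arrays all lay above those of the control. PCNA was higher in the null by 0.42 ± 0.08 (adjusted p = 0.000373), a fold of 1.34, and the 4 days gave 0.37, 0.48, 0.32 and 0.51. With the module as a block the change was 0.39 (adjusted p = 0.0133). In 424 the change was 0.23 ± 0.08 (adjusted p = 0.0639), not called. It was called with the hybridisation day as a block (adjusted p = 0.0423), with the replicate block (0.0438), after quantile normalisation (0.0419), and without 424 replicate 1, at 0.27 (adjusted p = 0.0432). The values in 113 and 65 were -0.06 and -0.05, with 95% intervals of -0.23 to 0.10 and -0.21 to 0.12.

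Mcm2, a second helicase subunit, had signals of 174, 169, 148 and 156 in the null, 103, 105, 100.3 and 122 in 113, and 129, 150.0, 167 and 159 in 424. In 65 they were 114.5, 130, 105 and 106, and in control 137, 154, 128 and 108. The controls spanned most of the range between the low alleles and the null. Against control none of the 4 changes was called: 0.27 ± 0.11 in the null (adjusted p = 0.0767), -0.26 in 113, 0.18 in 424 and -0.19 in 65. Without control replicate 2 the null change was 0.34 and was called (adjusted p = 0.0365). Mcm2 was nevertheless called in every step between neighbouring mutants, as given below.

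Mcm3, also of the helicase ring, had 165, 179, 174 and 153 in the null, 116, 117, 123 and 123 in 113, and 128, 157, 135 and 116 in 424. In 65 it had 103, 122, 108 and 161, and in control 151, 130, 127 and 126. The lowest null array, at 153, stood just above the highest control array, at 151. The change of 0.30 ± 0.11 in the null was not called (adjusted p = 0.0625). It was called without control replicate 1, which stood above the other controls, at 0.36 (adjusted p = 0.0427). The 424 change was -0.000465, unlike the other 3 replication genes, which had values of 0.18 to 0.38 there. That difference between genes was not tested.

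CycE encodes cyclin E, the limiting activator of Cdk2 at the start of S phase. It had signals of 156.5, 141, 168 and 140.0 in the null, 99.9, 134, 114 and 145.5 in 113, and 170.1, 224, 173 and 208 in 424. In 65 they were 139, 112, 162 and 138, and in control 106, 134, 138 and 129.5. The 424 arrays all stood above every array of the other 4 genotypes. CycE was higher in 424 than in control by 0.55 ± 0.12 (adjusted p = 0.0039), a fold of 1.47, with 0.61, 0.68, 0.29 and 0.62 on the 4 days. With the module as a block the change was 0.45 and the call was lost (adjusted p = 0.440). In the null the change was 0.23 (adjusted p = 0.206), not called. The lowest null array, at 140.0, stood just above the highest control array, at 138.

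Cdk2 encodes the kinase that CycE activates. Its signals were 130.3, 117, 129 and 128 in the null, 151, 153, 156 and 164 in 113, and 151, 167, 165 and 192 in 424. In 65 they were 210, 204, 181 and 192, and in control 157, 132, 159 and 169. The highest null array, at 130.3, lay just below the lowest control array, at 132, and 65 arrays all lay above the control arrays. Cdk2 was lower in the null by -0.26 ± 0.09 (adjusted p = 0.0459), with -0.24, -0.16, -0.27 and -0.35 on the 4 days. This call ended when any null array or control replicate 1, 3 or 4 was left out (changes of -0.27 to -0.22, adjusted p of 0.0615 to 0.131). It also ended with the module as a block, at -0.22 (adjusted p = 0.247), after median centring of the arrays, at -0.20 (0.118), after quantile normalisation, at -0.23 (0.0788), and with a pseudocount of 64 (0.0512). In all it was lost in 15 of 22 alternatives. Cdk2 was higher in 65 by 0.32 ± 0.09 (adjusted p = 0.0315), with 0.36 and 0.21 on the 2 days that held 65 arrays. The 65 call was lost without 65 replicate 1, 2 or 4 or control replicate 1 or 2 (0.26 to 0.33, adjusted p of 0.0542 to 0.138). Without 65 replicate 4, the array with the aborted run, the change was 0.33. With the module as a block it was 0.37 (adjusted p = 0.476).

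Set against all genes tested, 3 of the 6 genes were called in the null, where 19.8% of genes were. Among these 3, 2 were higher, where 8.87% of genes were, and 1 was lower, where 10.9% were. With arrays centred on their medians the split was 4 higher and 0 lower, as Mcm2 and Mcm3 were called (adjusted p of 0.0375 and 0.0293) and Cdk2 was not. None of the 6 was called in 113, where limma called 617 genes or 7.38%; at an unadjusted p under 0.05 Mcm2 alone passed there. In 424 it was 2 of 6, against 10.2% of all genes, and both were higher, against 4.67%. In 65 it was 1 of 6, against 6.07%. The median change of the 6 was 0.29 in the null, -0.05 in 113, 0.21 in 424 and 0.02 in 65, where the median over all genes lay between -0.01 and 0.01.

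**Figure D2:**
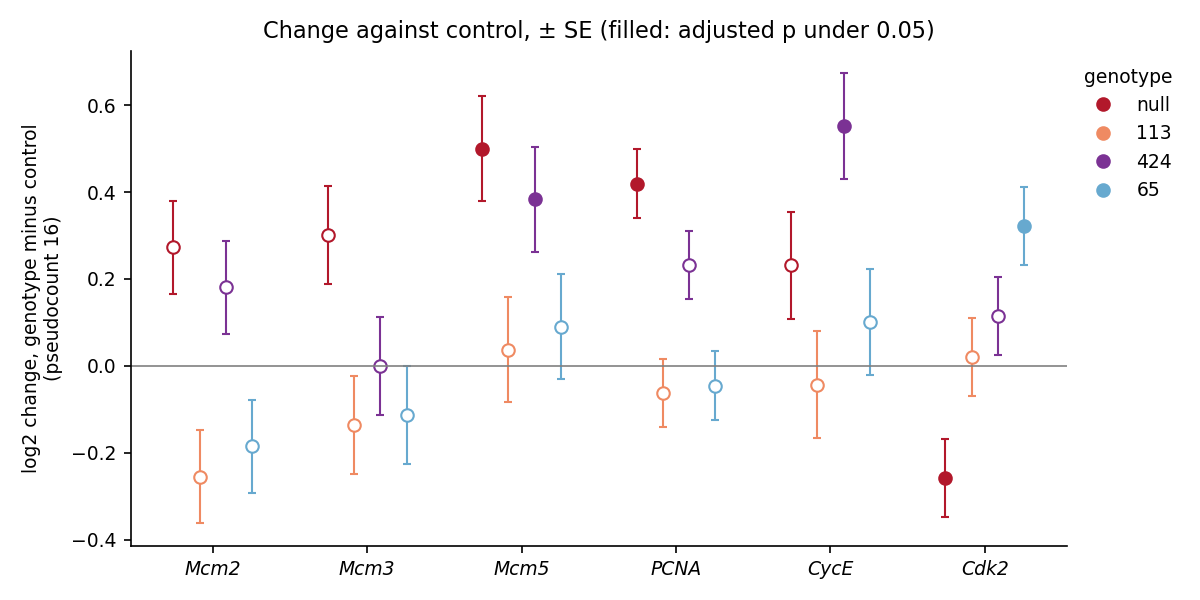
Log2 change against control (pseudocount 16) with its SE for each gene in null, 113, 424 and 65 embryos; filled points had an adjusted p under 0.05. The Mcm genes and PCNA have their highest value in the null, CycE has its highest in 424 at 0.55, and Cdk2 runs from below 0 in the null to 0.32 in 65.

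The steps between neighbouring alleles ask which drop in activity goes with a change. Between 424 and 65, Mcm2 was higher by 0.37 ± 0.11 (adjusted p = 0.0497), PCNA by 0.28 ± 0.08 (adjusted p = 0.0420) and CycE by 0.45 ± 0.12 (adjusted p = 0.0302). These 3 of 6 compare with 4.61% of all genes called in that step, and 1.63% called higher. The Mcm2 arrays of 424 and 65 overlapped, at 129 in 424 and 130 in 65, while those of PCNA and CycE did not overlap. All 3 calls were lost with the hybridisation day as a block, at adjusted p of 0.107 for Mcm2, 0.0535 for PCNA and 0.0700 for CycE, and with the module as a block, at 0.224, 0.157 and 0.165. Within the 2 shared days Mcm2 gave 0.07 and 0.59, PCNA 0.09 and 0.43, and CycE 0.40 and 0.19. Leaving out 65 replicate 1 or 4, or 424 replicate 2 or 4, also ended each of the 3 calls. Replicate 3 of 65 and of 424 did so for Mcm2 and PCNA, and 65 replicate 2 for CycE. The changes then lay between 0.32 and 0.37 for Mcm2, 0.23 and 0.29 for PCNA, and 0.37 and 0.46 for CycE.

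In the step to 113 from 424 the same 3 genes were called the other way. Mcm2 was lower in 113 by -0.44 ± 0.11 (adjusted p = 0.0116), PCNA by -0.29 ± 0.08 (adjusted p = 0.0215) and CycE by -0.59 ± 0.12 (adjusted p = 0.0027), against 7.25% of all genes called and 3.16% called lower. All 6 genes had a value under 0 in this step, where 48.4% of all genes had one above 0. The day values ran from -0.66 to -0.29 for Mcm2, from -0.44 to -0.16 for PCNA and from -0.68 to -0.47 for CycE. The PCNA call was lost without 424 replicate 3 or 4 or 113 replicate 1, 2 or 3 (changes of -0.29 to -0.26), and Mcm5 was called without 424 replicate 3, at -0.45 (adjusted p = 0.0290). With the module as a block the values were -0.43, -0.32 and -0.40 for Mcm2, PCNA and CycE, with adjusted p of 0.0800, 0.0688 and 0.0710.

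In the step to null from 113 all 4 replication genes were called higher in the null. As the background of the null is not given, this step cannot tell stock background and mef2 activity apart. Mcm2 was higher by 0.53 ± 0.11 (adjusted p = 0.0011), PCNA by 0.48 ± 0.08 (adjusted p = 0.000107), Mcm5 by 0.46 ± 0.12 (adjusted p = 0.0095) and Mcm3 by 0.44 ± 0.11 (adjusted p = 0.0087). These 4 compare with 6.81% of all genes called higher in that step. None of the 4 overlapped between null and 113 arrays, where 8.41% of genes were higher without overlap, and each was above 0 on all 4 days. With Cdk2, lower by -0.28 ± 0.09 (adjusted p = 0.0380), 5 of 6 genes were called, against 15.2% of all genes (8.36% called lower). The Cdk2 call was lost when any 1 of the 8 arrays of null and 113 was left out (-0.29 to -0.25, adjusted p of 0.0537 to 0.106). With the module as a block Mcm2 was at 0.56 and PCNA at 0.51, both called, while Mcm3, Mcm5 and Cdk2 were not (adjusted p of 0.186, 0.192 and 0.131). The Cdk2 call was also lost after median centring (-0.23, adjusted p = 0.0938) and quantile normalisation (-0.26, 0.0538).

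A straight line over the 5 ranks described part of this pattern. Per step towards the null, PCNA gained 0.08 ± 0.02 (adjusted p = 0.0016) and Mcm5 0.09 ± 0.03 (adjusted p = 0.0154), and Cdk2 changed by -0.08 ± 0.02 (adjusted p = 0.0053). These were 3 of 6 genes, against 17.9% of all genes. The Cdk2 slope was -0.07 with the module as a block and not called (adjusted p = 0.0867), while those of PCNA and Mcm5 were. The Mcm5 slope missed the threshold without null replicate 1 (0.08, adjusted p = 0.0507), and the Mcm3 slope of 0.06 was called without 65 replicate 4, at 0.07 (adjusted p = 0.0297). The line averages over the lower PCNA level of 113 beside 424, and its null end carries the unknown background of the null.

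By mean log2 level the order for Mcm2 was null, 424, control, 65 and 113, and no neighbours in that order differed beyond their spread. For PCNA it was null, 424, control, 65 and 113, and for Mcm5 null, 424, 65, 113 and control, where likewise no neighbours were called different. The order was null, control, 424, 65 and 113 for Mcm3 and 424, null, 65, control and 113 for CycE, again with no call between neighbours. For Cdk2 it was 65, 424, 113, control and null, and of these neighbours control and null alone were called different. Null and 424 differed by 0.09 in Mcm2, 0.12 in Mcm5 and 0.19 in PCNA, with 95% intervals of -0.13 to 0.31, -0.13 to 0.37 and 0.02 to 0.35. Between 113 and 65, which the activity order separates by 424, none of the 6 genes was called, where 1.77% of all genes were. The differences of 113 from 65 were -0.07 for Mcm2, -0.05 for Mcm5, -0.02 for Mcm3 and -0.02 for PCNA, with 95% intervals that reached no further than -0.30 to 0.21. CycE differed by -0.14 and Cdk2 by -0.30 ± 0.09 (adjusted p = 0.105), and the Cdk2 arrays of 113 all lay below those of 65. Null minus 65 gave calls for Mcm2, Mcm3, Mcm5 and PCNA at 0.41 to 0.46 and for Cdk2 at -0.58, the widest gap of Cdk2 (16.3% of all genes called). Null minus 424 gave only Cdk2, at -0.37 (17.8% of all genes called).

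The muscle genes of the same arrays followed the allele order. Summed over Mlc2, Mlc1, TpnC73F, up, Tm2, sls and bt, which encode parts of the contractile apparatus, the median signal was 83.3 in the null, 169 in 113, 444 in 424, 745 in 65 and 1174 in control. The mean z-score of Mcm2, Mcm3, Mcm5 and PCNA, in SD units over the 20 arrays, was 1.03 to 1.54 in the null, -1.12 to -0.24 in 113 and -0.02 to 0.85 in 424. It was -1.08 to -0.25 in 65 and -0.68 to -0.09 in control. The muscle sums of the 5 genotypes did not overlap, whereas the replication scores of 113, 65 and control did.

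**Figure D3:**
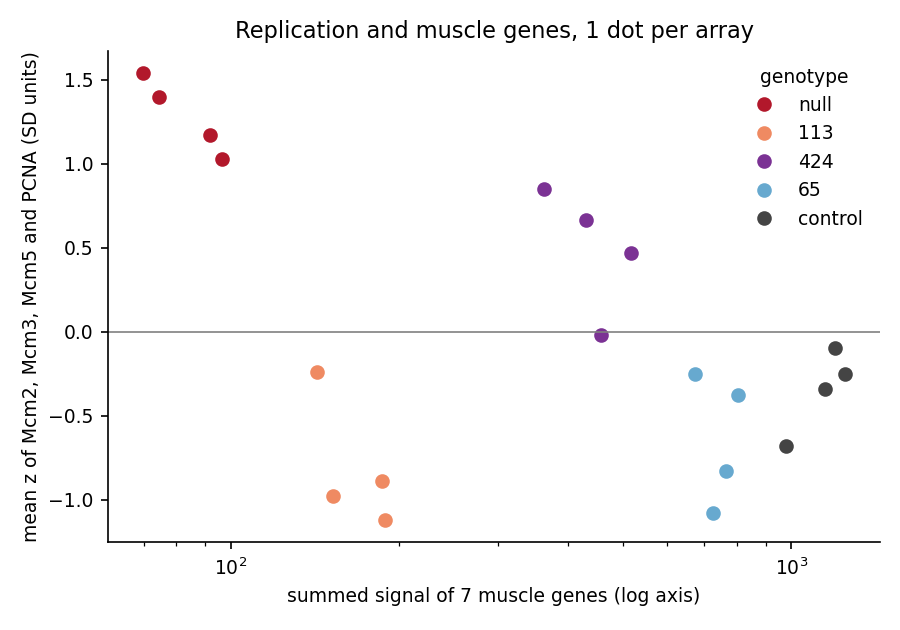
Mean z-score of Mcm2, Mcm3, Mcm5 and PCNA (SD units over 20 arrays) against the summed signal of 7 muscle genes (log axis), 1 dot per array, coloured by genotype. The muscle sum orders the genotypes as null, 113, 424, 65 and control, while the replication score is highest in the null, next in 424, and at or below -0.09 in all arrays of 113, 65 and control.

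How far the 6 genes moved together is a description, since arrays of 1 genotype share their level. Over the 20 arrays Mcm2 and PCNA had a Pearson r of 0.84, Mcm5 and PCNA 0.72, Mcm3 and PCNA 0.66, and Mcm5 and CycE 0.69. With genotype means removed these were 0.48, 0.08, 0.09 and 0.55. Cdk2 had an r of -0.45 with PCNA over all arrays, and 0.61 with genotype means removed.

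The other genes of origin licensing and the helicase numbered 14 with a probe set of 17 sought. In the null 2 of the 14 rose, where 8.87% of all genes did, and none fell, with a median of 0.20 against -0.01 over all genes. Psf1, a subunit of the GINS complex that completes the helicase, had a mean signal of 123 in the null and 61.1 in control, a change of 0.94 ± 0.21 (adjusted p = 0.0022), although arrays overlapped. dpa, which encodes Mcm4, had 197 in the null and 149.9 in control, a change of 0.37 ± 0.12 (adjusted p = 0.0348) that was not called without null replicate 2 or 3 or control replicate 2 (lowest change 0.26). The Mcm6 change was 0.32 (adjusted p = 0.0549) and the change of Orc2, an origin recognition subunit, was 0.43 (adjusted p = 0.108). In 113, 424 and 65 the GINS gene Psf3 fell by 1.17, 0.86 and 1.02 on the log2 scale (adjusted p of 0.0012, 0.0140 and 0.0053), against -0.26, not called, in the null. Its mean signal in 113, 7.52, lay under the filter level and its signals in 424 and 65 were 13.0 and 10.5, against 35.7 in control, so these sizes depend on the pseudocount. The Psf3 call in 424 was lost without 424 replicate 2 (adjusted p = 0.0646). Cdc6, an Mcm loading factor, was higher in 424 by 0.41 ± 0.13 (adjusted p = 0.0497) and lost its call without any 424 array or control replicate 2, 3 or 4 (0.28 to 0.55 over all arrays left out).

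For the step to 424 from 65, all 14 licensing genes had a value above 0, with a median of 0.14, against a median of -0.00 over all genes. Only Psf1 was called, at 0.81 (adjusted p = 0.0222), where 1.63% of all genes were called higher. In the null against 113, 13 of 14 were above 0 and 4 were called higher, namely Psf3, dpa, Orc4 and Cdc45, where 48.1% of all genes were above 0 and 6.81% called higher. Cdc45, the activator bound by the Mcm ring, was higher in the null by 0.58 (adjusted p = 0.0031), and Orc4, an origin recognition subunit, by 0.50 (adjusted p = 0.0478).

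At the replication fork 17 of 20 genes had a probe set. RPA1, the large subunit of the single-strand binding protein, had a mean signal of 341 in the null, 166 in 113, 251 in 424, 176 in 65 and 215 in control. It rose in the null by 0.63 ± 0.10 (adjusted p = 4.30e-05) and fell in 113 by 0.35 on the log2 scale (adjusted p = 0.0320). The 113 call was lost without 113 replicate 1 or 3 or control replicate 1, 2 or 3, at changes of -0.42 to -0.27 over all arrays left out. A second RPA1 probe set had a mean signal of 12.8 and a null change of 0.01 (adjusted p = 0.988). RPA3, the small subunit, fell in 113 by 0.46 (adjusted p = 0.0151) and in 65 by 0.41 on the log2 scale (adjusted p = 0.0400), and had 0.26 in the null, not called. The 113 call of RPA3 was lost without 113 replicate 2 or control replicate 1, and its 65 call without any 1 of 7 of the 8 arrays (-0.47 to -0.34).

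Prim2, the large primase subunit, rose against control in all 4 mutants, by 0.71, 1.13, 0.78 and 1.05 in null, 113, 424 and 65 (adjusted p of 0.0252, 0.0016, 0.0265 and 0.0039). Its mean signals were 51.0, 72.6, 53.6 and 67.1 in these mutants and 26.2 in control. In the null and in 424 the call was lost without control replicate 2 or 4, and without replicates 2 or 3 of the null or 2 or 4 of 424 (lowest changes 0.49 and 0.56). Fen1, the flap endonuclease that trims Okazaki fragments, was higher in 424 by 0.50 ± 0.15 (adjusted p = 0.0346) and had 0.40 in the null (adjusted p = 0.0614). RPA2, chosen after its value was seen, was also higher in 424, by 0.43 (adjusted p = 0.0346). RfC4, a clamp loader subunit, was lower in 65 by -0.40 (adjusted p = 0.0318). Without 424 replicate 1 or 4 or control replicate 1, 2 or 3 Fen1 lost its call (0.42 to 0.57), and RfC4 lost it without 65 replicate 1, 2 or 3 or control replicate 1, 2 or 4 (-0.46 to -0.37).

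The fork genes counted 2 higher in the null (RPA1 and Prim2), 1 higher and 2 lower in 113, 3 higher in 424, and 1 higher and 2 lower in 65, all of 17. Of all genes 8.87% were called higher in the null and 4.67% in 424, and 7.38% were called either way in 113 and 6.07% in 65. Their medians were 0.09, -0.14, 0.21 and -0.07 in null, 113, 424 and 65. In 424 against 65, 4 were called higher and none lower (RPA1, RPA3, RfC4 and DNAlig1, at 0.47 to 0.52), where 1.63% of all genes were called higher. In 113 against 424, 3 were called lower, RPA1 at -0.56, RPA3 at -0.57 and the ligase gene DNAlig1 at -0.48, where 3.16% of all genes were called lower. In the null against 113, 2 were called higher and 0 lower, where 6.81% of all genes were called higher. These were RPA1, by 0.98 (adjusted p = 9.22e-08), and RPA3, by 0.71 (adjusted p = 0.000122). RPA1 and RPA3, like PCNA, were higher in null than in 113, lower in 113 than in 424 and higher in 424 than in 65.

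**Figure D4:**
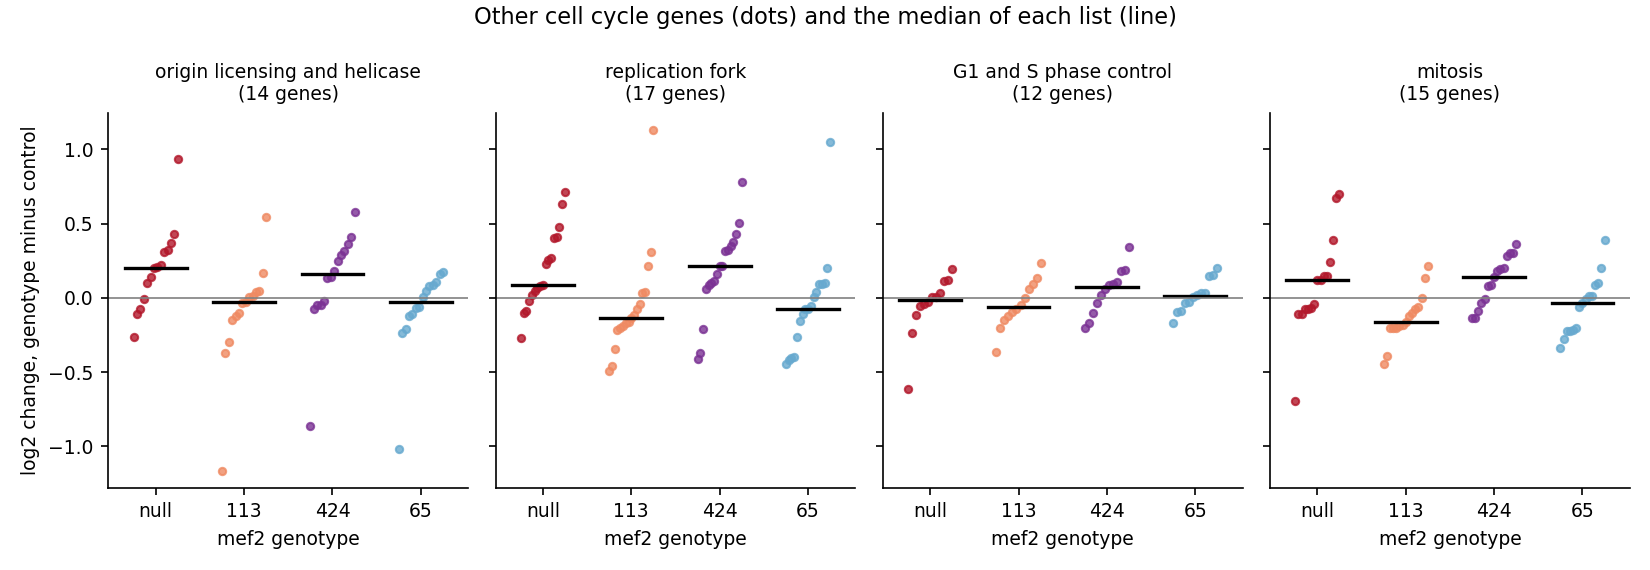
Log2 change against control of every tested gene in 4 lists (dots, sorted within each column) and the list median (line), for null, 113, 424 and 65 embryos. The lines of the licensing list are at 0.20 and 0.16 in null and 424 and near 0 in 113 and 65, and those of G1 and S phase control lie between -0.06 and 0.07.

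All 12 genes of G1 and S phase control had a probe set. In the null 1 fell, where 10.9% of all genes did, in 113 1 fell, where 7.38% were called either way, and in 424 1 rose, where 4.67% did. E2f2, the repressive E2F, had a mean signal of 193 in the null and 302 in control and fell by 0.61 ± 0.09 on the log2 scale (adjusted p = 1.51e-05). rux, an inhibitor of mitotic cyclin kinases, fell in 113 by 0.36 on the log2 scale (adjusted p = 0.0176), lost without 113 replicate 2 or 3 or control replicate 1 or 4 (-0.42 to -0.32). Dp, the E2F partner, was higher in 424 by 0.34 (adjusted p = 0.0291), lost without 424 replicate 1, 2 or 4 or control replicate 1, 3 or 4 (0.30 to 0.41). None of the 12 was called in 65, where at an adjusted p of 0.216 SkpA, a subunit of ubiquitin ligases, was nearest. The list medians were -0.01, -0.06, 0.07 and 0.01 in null, 113, 424 and 65.

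Of 24 genes of mitosis 16 had a probe set and 15 were tested. In the null 1 of the 15 rose and 1 fell, where 19.8% of all genes were called either way. In the null the spindle checkpoint gene mad2 had a mean signal of 44.4, against 82.0 in control, and fell by 0.69 ± 0.11 on the log2 scale (adjusted p = 8.28e-05). ncd, a minus-end kinesin of the spindle, had 235 in the null and 143 in control and rose by 0.67 ± 0.13 (adjusted p = 0.000451). fzr, which directs the anaphase-promoting complex in cells that leave the cycle, was higher in 424 by 0.36 and in 65 by 0.39 (adjusted p of 0.0275 and 0.0236). Both fzr calls were lost without control replicate 1, 2 or 3, without 424 replicate 2 or 4, or without 65 replicate 1 or 3 (0.29 to 0.45 in 424 and 0.32 to 0.47 in 65). Klp61F, a spindle kinesin, fell in 113 by 0.39 (adjusted p = 0.0206), and CycB3, a mitotic cyclin, fell in 65 by 0.28 on the log2 scale (adjusted p = 0.0314). The call of Klp61F was lost without 113 replicate 1 or 3 or control replicate 2 or 4 (-0.44 to -0.36), and that of CycB3 without 65 replicate 2 or 4 or control replicate 1 or 2 (-0.31 to -0.25).

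In the step to 113 from 424, 4 mitotic genes were called lower and none higher: Incenp, fzr, Klp61F and scra, at -0.47 to -0.27, where 3.16% of all genes were called lower. Incenp, of the chromosomal passenger complex, was higher in 424 than in 65 by 0.35 (adjusted p = 0.0271) and higher in the null than in 113 by 0.34 (adjusted p = 0.0117). tum, which is needed for cytokinesis, was higher in the null than in 113 by 0.83 (adjusted p = 0.000621). In null against 113, 3 of the 15 were called higher and 1 lower, with values from -0.49 to 0.83. Of all genes 6.81% were called higher and 8.36% lower in that step. In 424 against 65, 2 of the 15 were called higher and 0 lower, where 1.63% of all genes were called higher. The step genes of these lists were chosen by their calls, after their values were seen. Against control, 9 of the 25 calls among list genes named by rule were kept with each array left out in turn, and 4 were kept with the module as a block: E2f2, RPA1, mad2 and ncd in the null.

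Some genes of the neuroblast list were called against control, in both directions. Of 7 neuroblast genes, all measured, 3 were higher in 424: ase by 0.46, pros by 0.34 and brat by 0.33, where 4.67% of all genes were called higher. Their summed signal over all 7 was 2596 to 2951 in 424, 2431 to 2571 in the null, 2421 to 2662 in 113, 2195 to 2557 in 65 and 2183 to 2612 in control. In the null 1 of 7 was called, dpn, a neuroblast transcription factor, which was lower at -0.38. Of all genes 10.9% were called lower in the null and 19.8% either way. In 113 only pros was called, higher at 0.40, and none was called in 65, where 7.38% and 6.07% of all genes were called. In 113 against 424, ase and insc were lower, at -0.41 and -0.43, while the other 5 were not called. There 3 of the 7 were above 0 and the median was -0.04. All 7 were above 0 in 424 against 65, with a median of 0.19, against -0.00 over all genes. Only 1 of them was called higher there, where 1.63% of all genes were. Null against 65 gave 3 called higher and 0 lower, where 16.3% of all genes were called either way. Null against 113 gave 1 higher and 1 lower, where 6.81% and 8.36% of all genes were. The part of these 7 genes in the values of CycE and the replication genes was not tested.

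Of 6 gut and salivary gland genes, 4 had a probe set and none was called against control, with summed signals of 410.1 to 546 in the null, 414 to 518 in 113, 397 to 509 in 424, 408 to 542 in 65 and 442 to 576 in control. Of 6 germ cell genes 4 had a probe set, and aub, a piRNA pathway gene, was higher in 424 by 0.68 and lower in the null at -0.40. It was the only 1 of these 4 called against control. Of all genes 4.67% were called higher in 424 and 10.9% lower in the null. Over the 4 comparisons against control, 6.07% to 19.8% of all genes were called either way. The summed germ cell signal was 444 to 572 in the null, 432 to 568 in 113, 501 to 556 in 424, 492 to 560.1 in 65 and 419 to 568 in control. The measured genes of the neuroblast, gut and germ cell lists had all passed the filter on their mean over the 20 arrays. None of them had a genotype mean under the filter signal. Of the 7 muscle genes, 5 lay under it in the null and 2 in 113.

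The genes whose pattern over the 20 arrays was most like the mean z-score of Mcm2, Mcm3, Mcm5 and PCNA were CG4440, RPA1, cathD, CG13427 and baf, with a Pearson r of 0.93, 0.92, 0.91, 0.90 and 0.90. Only RPA1 belongs to one of the lists. CG13427 had the widest range of the 5, with mean signals of 3256 in the null, 757 in 113, 1191 in 424, 902 in 65 and 818 in control. CG4440 had 1183, 326, 634, 283 and 431 in the same genotypes. Both were called in the null and in 424, CG13427 at 1.97 and 0.53 and CG4440 at 1.42 and 0.53 on the log2 scale. Of all genes 8.87% were called higher in the null and 4.67% in 424. The genes were picked for likeness to a score that is highest in null and 424, so rises there follow in part from the choice. CG4440 was also lower in 65 than in control, at -0.59 (adjusted p = 0.0069). Of the lists, the genes next in likeness were Incenp at 0.82, RPA3 at 0.78 and tum at 0.76.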

How the data were processed

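The authors deposited linear MAS5 intensity values, 1 for each probe set of an array (MAS5 is named in the submitters' processing notes). Its version and the genome build were not given in the sources used here. Array means after trimming 2% at each end were 100.02, so the deposited intensity values were already scaled. Hybridisation day and module came from the run records. Of 14010 probe sets, 44 controls were left out, 12443 had 1 symbol, 327 several and 1196 none. Of the single-symbol probe sets 12394 matched RefSeq Release 6. The probe set with the highest mean stood for a gene, and the lowest 25% of probe sets (signal under 9.29) were left out. limma 3.58.1 (R 4.3.3) fitted log2(intensity + 16) with 1 mean per genotype over 20 arrays, with 15 residual degrees of freedom, a mean-variance trend and Benjamini-Hochberg adjustment over 8358 genes. The contrasts were each mutant against control, other pairs of genotypes, and a line over the ranks. Tables were made with python 3.11.15 and pandas 2.3.3. The procedure was tested on simulated data with independent noise and no day or module effect. That test cannot speak of batch effects in these arrays.

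All members with a probe set are named. Of each list, up to 4 genes with the smallest p in the null and up to 2 in each other mutant were picked. The picks that limma called are given above, but not all values of the uncalled ones. Ndc80, at 0.70 in the null (adjusted p = 0.0893), and Cdk4, at 0.19 in 424 (adjusted p = 0.172), are among those left out there. The 5 genes most like the replication genes are named as well. The members and lists were chosen with earlier results of these data known. No label says that replicate numbers pair samples, but in every genotype except 65 the number is also that of the hybridisation day. Deviations of same-numbered arrays from their genotype means correlated at a median of 0.06 (-0.02 to 0.17, over 0.1 in 10 of 40 pairs). Other pairs had a median of -0.02 (over 0.1 in 1 of 120), so same-numbered arrays were somewhat more alike. The main fit nevertheless took no account of the numbers, and the replicate block is among the alternatives. With that block 1883 genes were called in null against control, in place of 1656. The number of arrays limits the precision. Alternatives covered the pseudocount, filter, scaling, probe set choice, arrays fitted, trend, blocks and each array left out. Module 4 alone was added after seeing the data. Sequences were not used here.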

Additional observations from a re-analysis of the deposited data

Results flagged for a closer look

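Array values far from their group were looked for in 30 groups (6 genes in 5 genotypes), and 2 were found, where chance gives about 1 in 20 groups. In the control, 1 Mcm3 array stood above the rest by a gap of 0.859 of the group's range. In the null, 1 Cdk2 array stood below the rest by 0.864 of the range.

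Neighbouring mutants differed from each other in these tests. In 424 against 65 the log2 differences were 0.366 for Mcm2, 0.278 for PCNA and 0.451 for CycE. In 113 against 424 they were -0.436 for Mcm2, -0.294 for PCNA and -0.594 for CycE. In null against 113 they were 0.528 for Mcm2, 0.437 for Mcm3, 0.463 for Mcm5, 0.481 for PCNA and -0.279 for Cdk2. Each was called by limma.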

How the results depend on the processing

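Of 48 changes of the 6 genes, 20 were called, and 5 of these were called in every alternative run: Mcm5 and PCNA in null against control, Mcm2 and PCNA in null against 113, and the PCNA slope. Of the 28 that were not called, 15 changed sign in at least 1 alternative. The count of called genes was 3 in the null, within 1.5 times in all 22 alternatives, though its genes changed: Cdk2 was lost in 15 of the 22, and median centring gave 4 higher and 0 lower in place of 2 and 1. It was 0 in 113 in all 21. In 424 the count of 2 became 1 with no filter, with only the 2 genotypes fitted and with no mean-variance trend, and 0 with the module as a block. In 65 the count of 1 became 0 with only the 2 genotypes fitted and with the module as a block. For 424 against 65 the count of 3 became 0 with only the 2 genotypes fitted, with no trend, and with the hybridisation day or the module as a block. The module block also gave 0 in place of 3 for 113 against 424 and 2 in place of 5 for null against 113. Leaving out 1 array gave 2 to 4 in the null, 0 to 0 in 113, 1 to 2 in 424, 0 to 1 in 65, 0 to 3 for 424 against 65, 2 to 3 for 113 against 424, 4 to 4 for null against 113 and 2 to 4 for the slope, whose count was 3. Mcm5 in 424 against control reversed within hybridisation day 3, at -0.0627. The cause was not tested. The replicate block gave counts of 3, 0, 3, 1, 3, 3, 5 and 3 for null, 113, 424 and 65 against control, 424 against 65, 113 against 424, null against 113 and the slope. Except in 65, this number is also that of the hybridisation day. With the module as a block the genes called over the whole array were 80 in place of 849 in 424, 64 in place of 507 in 65, 214 in place of 385 for 424 against 65, 311 in place of 606 for 113 against 424 and 576 in place of 1268 for null against 113. With this block the SE of CycE in 424 against control was 0.21 in place of 0.12, and its change 0.45 in place of 0.55. For Cdk2 in 65 against control the SE was 0.17 in place of 0.09, and the change 0.37 in place of 0.32. Why the counts fell was not tested. On module 4 alone, chosen after seeing the data, Mcm5 was at 0.59 and PCNA at 0.39 in null against control (adjusted p of 0.0113 and 0.0213). Signals of the 6 genes were well over the filter level, and 1 probe set per gene and 4 arrays per genotype limit what can be told.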
